A study of Macaca mulatta with 5 samples.

Results

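PECAM1, CDH5 and TEK are 3 genes of the blood vessel lining, and their messenger RNA was followed through a 5-stage culture of rhesus macaque embryonic stem cells directed towards serotonin neurons. The 3 genes were selected by gene symbol from the annotation of the array, out of 14132 named genes, and all 7 of their probe sets were kept whatever their signal (3 for PECAM1, 2 for CDH5 and 2 for TEK). A probe set is a group of short oligonucleotides on the array that together give 1 signal for a stretch of a transcript.

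All samples came from 1 macaque line, 366.4, with no genetic change or drug named in the labels. ESC were undifferentiated cells collected at passage 13 and grown over mouse embryonic fibroblasts (MEF). EB were embryoid bodies, the aggregates such cells form, taken after 6 to 8 days. N1 were neurospheres kept for 7 to 9 days in DMEM/F12 medium with N2 supplement, a serum-free mixture that shares its name with a later stage. The N2 stage, titled as proliferating serotonin neurons, was this culture expanded with FGF4 for 7 to 9 days, and N3, titled as differentiating serotonin neurons, was the maturation phase without FGF4 in wells described as GFR reduced. Each stage was measured once, on 1 Affymetrix rhesus array, so every value is a single measurement, no test was possible and no difference has a replicate check.

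Endothelial cells line blood vessels and are held together by proteins at their borders. PECAM1 (CD31) is an adhesion molecule of the immunoglobulin family at these borders, present also on platelets and white blood cells. CDH5 (VE-cadherin) is the cadherin of endothelial adherens junctions and is bound inside the cell by catenins. TEK (TIE2) is the receptor tyrosine kinase for the angiopoietins: ANGPT1 activates it, and TIE1 is its partner receptor. In embryos, endothelial and blood cells arise together from mesoderm.

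Signals written as 5 numbers from ESC to N3 stand for ESC, EB, N1, N2 and N3 in that order, and were taken after each array was brought to the same trimmed mean of 500. A signal below 100 is called below the floor, and such signals have no order among themselves. A ratio with one side below the floor was computed against 100 and is written as "at least". RNA quality was uneven over the stages: the ratio of the 3' to the 5' actin control was 1.73, 15.2, 5.43, 25.2 and 8.63 from ESC to N3. The highest of 42 negative control probe sets lay between 47.6 and 87.2, and 67.6% to 73.1% of named genes were above the floor on each array. The part of RNA quality, or of mouse RNA from the feeder layer of ESC, in the results below was not tested.

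The brightest probe set of each gene was highest in EB. PECAM1 and TEK were lowest in N3, and CDH5 was below the floor in ESC and N3, which leaves those 2 stages without an order. PECAM1 had a signal of 126, 1291, 523, 300.3 and 60.9 from ESC to N3. It was thus close to the floor in stem cells, high in embryoid bodies, intermediate in N1 and N2 and below the floor after maturation. CDH5 had a signal of 48.9, 919, 311, 254 and 12.1 from ESC to N3. CDH5 was below the floor at both ends of the culture and above it at the 3 stages between. TEK had a signal of 3070, 8706, 4963, 2712 and 1499 from ESC to N3. Unlike the other two, this TEK probe set was far above the floor on all 5 arrays, stem cells included. With 1 array a stage, it could not be assessed whether neighbours in the order, such as TEK in ESC and N2, differ beyond the spread of repeated cultures.

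**Figure D1:**
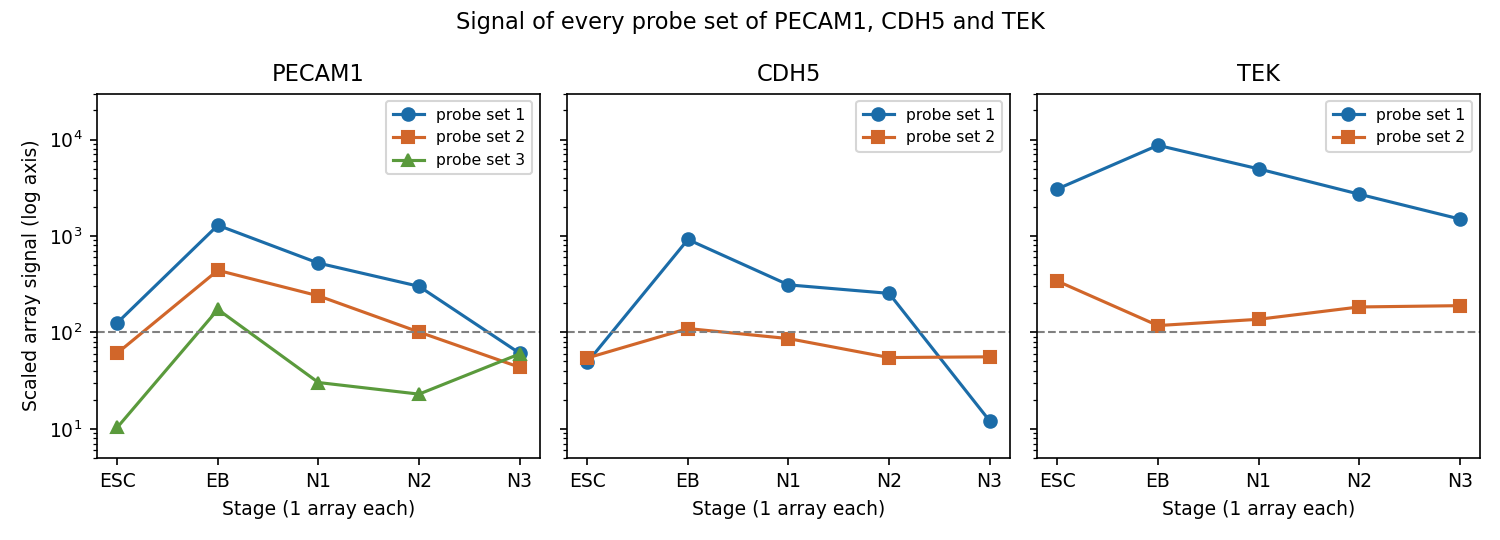
Scaled array signal (log axis) of each probe set of PECAM1, CDH5 and TEK at the 5 stages, 1 array each, with probe set 1 the brightest of its gene and the dashed line the floor of 100. Probe set 1 peaks in EB for all 3 genes, at 1291, 919 and 8706, whereas probe set 2 of TEK is highest in ESC at 340; heights are to be compared along a line, not between lines.

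The other probe sets did not all show the same course. The second PECAM1 probe set read 61.0, 440, 239, 101 and 43.5 from ESC to N3, which is the order of the brightest one from EB onwards. The third was above the floor in EB alone, at 173, and lay between 10.3 and 59.7 on the other arrays. All 3 PECAM1 probe sets were therefore highest in EB.

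For CDH5, the second probe set passed the floor only in EB, at 110, and read 54.3 to 86.2 elsewhere, so it had no range in which to follow the first. It was highest in N1 rather than EB when the arrays were scaled to the hybridisation controls. For TEK, the second probe set read 340, 118, 137, 183 and 189 from ESC to N3. This course is close to the opposite of that of the first TEK probe set: EB was the highest stage in one and the lowest in the other, although N1 was the lowest of the second after quantile normalisation or with equal medians. Which stretch of the TEK transcript each of them covers was not analysed here. Among 474 genes whose brightest probe set was highest in EB and that had a measured second one, the second was also highest in EB for 33.1% and highest in ESC, as for TEK, for 35.7%.

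Between ESC and EB, PECAM1 was 10.3-fold higher in EB (log2 ratio 3.36), CDH5 at least 9.19-fold higher (3.20) and TEK 2.84-fold higher (1.50). For comparison, 12.1% of 10978 measured genes passed 2-fold upwards and 11.8% downwards, with a median log2 ratio of -0.06. For PECAM1 the second probe set was at least 4.40-fold higher and the third at least 1.73-fold. The second CDH5 probe set was at least 1.10-fold higher, and the second TEK probe set was 2.89-fold lower in EB. Of the 7 probe sets, 4 were thus at least 2-fold higher and 1 at least 2-fold lower, where 10.8% and 16.6% of 18202 measured probe sets of named genes were. The TEK disagreement is uncommon but not unique: 1092 genes passed 2-fold and had another measured probe set, and this other one differed by 2-fold or more in the opposite direction for 51, or 4.67%, and in the same direction for 41.7%. When TEK was taken as the median of both its probe sets, the log2 ratio was -0.014. The direction for TEK therefore rests on the choice of probe set. A technical yardstick, called the SD between probe sets, was taken from the log2 ratios of the 2 brightest probe sets of a gene. It is the SD of their difference over genes, divided by the square root of 2. In this comparison it was 0.75, and it is not a replicate spread.

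From EB to N1 the brightest probe sets were 2.47-fold lower for PECAM1 (log2 ratio -1.30), 2.95-fold lower for CDH5 (-1.56) and 1.75-fold lower for TEK (-0.81). In this step 2.20% of 10335 measured genes were at least 2-fold lower and 5.15% at least 2-fold higher, and the SD between probe sets was 0.45. Of the 7 probe sets 2 were past 2-fold, both lower, where 1.87% of 17034 probe sets were lower and 7.37% higher. For PECAM1 the second probe set was 1.84-fold lower and the third at least 1.73-fold lower, and the second TEK probe set was 1.16-fold higher, a direction that turned after quantile normalisation and with equal medians (log2 ratios of -0.15 in both). Scaling to the hybridisation controls moved the all-gene median to 0.41 and gave PECAM1 a log2 ratio of -0.84, CDH5 -1.10 and TEK -0.35, so that PECAM1 was no longer past 2-fold.

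From N1 to N2, when FGF4 was added, no brightest probe set of the 3 genes was past 2-fold. The log2 ratio was -0.80 for PECAM1, -0.29 for CDH5 and -0.87 for TEK, while the second PECAM1 probe set was 2.37-fold lower (-1.25). In the same step 6.53% of 10552 measured genes and 9.78% of 17346 probe sets were at least 2-fold lower, and 5.06% and 4.46% at least 2-fold higher. With hybridisation controls, where the all-gene median was -0.57, PECAM1 and TEK were at -1.38 and -1.45.

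From N2 to N3 PECAM1 was lower, with a log2 ratio of -1.59 that is a bound, and CDH5 at least 2.54-fold lower (-1.34), both leaving the range above the floor, and TEK was 1.81-fold lower (log2 ratio -0.85). The share at least 2-fold lower was 2.19% of 10401 measured genes and 1.81% of 17035 probe sets, and the share at least 2-fold higher was 4.78% and 6.48%. The PECAM1 and CDH5 signals of N2, 300.3 and 254, were near enough to the floor that a floor of 200 gave -0.59 and -0.34, which are not past 2-fold. The second TEK probe set differed by 1.03-fold.

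Over the whole span from EB to N3, PECAM1 was at least 12.9-fold lower, CDH5 at least 9.19-fold and TEK 5.81-fold (log2 ratio -2.54), beside 11.2% of 10498 measured genes at least 2-fold lower and 13.0% higher. Of the 7 probe sets 4 were at least 2-fold lower, where 9.86% of 17254 probe sets were lower and 13.7% higher; the second TEK probe set was 1.61-fold higher. This comparison shares its EB array with the 2 comparisons of EB with its neighbours. N1 kept 40.5% of the EB signal for PECAM1, 33.9% for CDH5 and 57.0% for TEK, and N2 kept 23.3%, 27.6% and 31.1%. TEK still had 17.2% of its EB signal in N3. On the log2 scale TEK differed by nearly the same amount at each of the 3 steps (differences of -0.81, -0.87 and -0.85), whereas CDH5 differed by -1.56 in the step to N1 and by -0.29 in the step to N2. The order ESC below EB, then lower at every later step, was met by the brightest probe set of all 3 genes. It was also met by 8.70% of the 6080 genes that reached 200 on an array and spanned 2-fold, and 16.1% of those genes were highest in EB. The 3 genes were chosen with earlier results of these data known, so these shares describe the background and test nothing. The second TEK probe set did not show this order.

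In N3 against ESC, PECAM1 was at least 1.26-fold lower, and CDH5 was below the floor in both, so that no ratio is given. TEK was 2.05-fold lower in N3 (log2 ratio -1.03) on the first probe set and 1.80-fold lower (-0.85) on the second, so that here both TEK probe sets were lower. Among all measured genes, 16.4% of 11232 were at least 2-fold lower in N3 than in ESC and 17.2% higher, and among 18736 probe sets 19.0% and 15.9%. With equal medians or hybridisation controls TEK was no longer past 2-fold in this comparison.

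**Figure D2:**
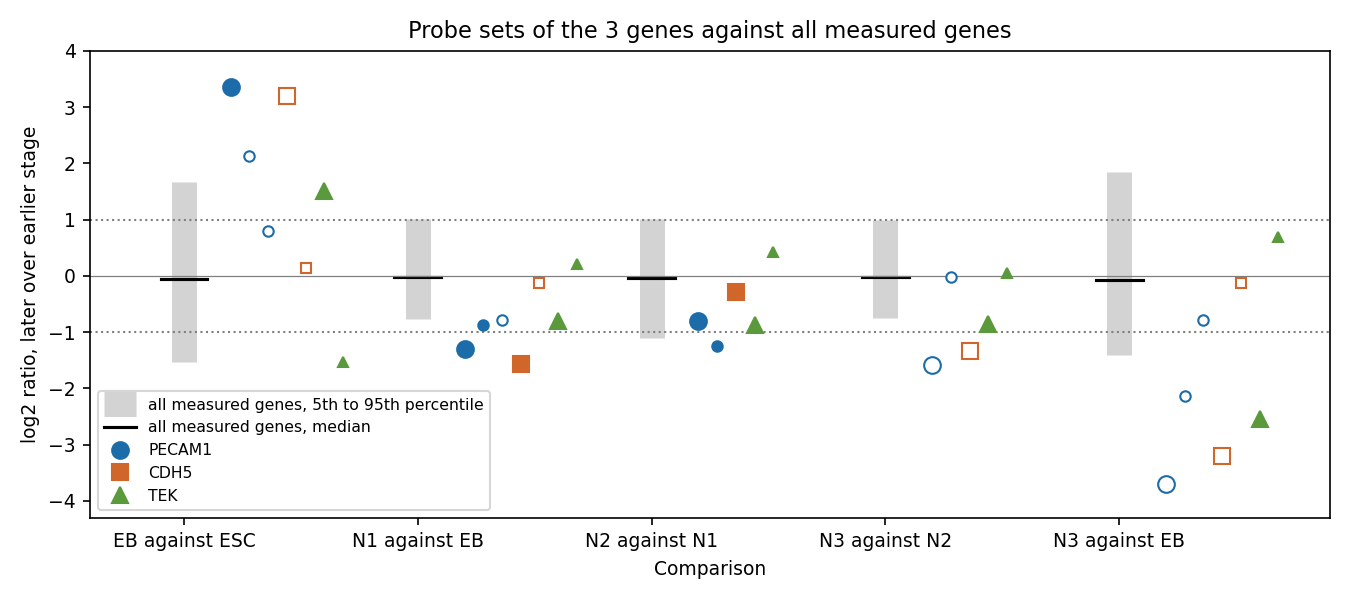
Log2 ratio of the later over the earlier stage for each probe set of the 3 genes measured in the comparison (large symbols, brightest probe set; small symbols, the others; open symbols, a bound with 1 side at the floor), beside the 5th to 95th percentile (grey) and median (black) of all measured genes; dotted lines mark 2-fold. PECAM1 and CDH5 lie above the grey range in EB against ESC, at 3.36 and 3.20, and below it in N3 against EB, at -3.69 and -3.20, while the second TEK probe set lies at -1.53 in EB against ESC.

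The angiopoietin system around TEK was measured by 5 of 7 listed genes. ANGPT1, the activating ligand of TEK, read 94.7, 5154, 5164, 3648 and 1004 from ESC to N3. It was at least 51.5-fold higher in EB than in ESC, and its second probe set had a log2 ratio of 5.02. ANGPT1 had nearly the same signal in EB and N1, where TEK was lower by a log2 ratio of -0.81. TIE1, the partner receptor, read 101, 505, 516, 212 and 57.5 from ESC to N3. It was 4.99-fold higher in EB than in ESC and at least 5.05-fold lower in N3 than in EB, on its single probe set. PTPRB, an endothelial phosphatase that acts on TEK and on VE-cadherin, was 354 in ESC and 155 in EB, 2.29-fold lower, while its second probe set had a log2 ratio of 0.12. SVEP1, an extracellular matrix protein, ranged from 905 in ESC to 1334 in N1, with a second probe set at a log2 ratio of -1.36 in EB against ESC, and ANGPT4 was below the floor throughout. ANGPT2, a second TEK ligand, was not analysed here.

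The receptors for vascular endothelial growth factor were below the floor at every stage. KDR, the main receptor of endothelial cells, read 27.0 to 91.1, FLT1 5.82 to 42.2 and FLT4, the receptor of lymphatic vessels, 2.68 to 80.5. Of the ligands, PGF read 141, 1008, 686, 223 and 263 from ESC to N3. PGF was 7.17-fold higher in EB than in ESC and 3.83-fold lower in N3 than in EB, a course similar to that of PECAM1 up to N2. VEGFB lay between 1077 and 1922. The co-receptor gene NRP1 read 241 in ESC and 482 in EB, and its highest signal was 799 in N1. VEGFA and VEGFC were not analysed here.

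The genes of most proteins that bind VE-cadherin or PECAM1 inside the cell were within 2-fold between ESC and EB. CTNNA1 (alpha-catenin) ranged from 7347 to 11506 and CTNND1 (p120 catenin) from 1692 to 2847, and JUP (plakoglobin) was highest in ESC at 1524 and lowest in N2 at 744. CTNNB1 was not analysed here. Among 8 measured partners of PECAM1 signalling, 0 were at least 2-fold higher in EB than in ESC and 1 was lower, with a median log2 ratio of -0.33. Over all measured genes 12.1% were higher and 11.8% lower, so 1 of 8 is near the background. PTPN11 (SHP2), the phosphatase recruited by the PECAM1 tail, ranged only from 6622 to 8171. INPP5D (SHIP1), a lipid phosphatase of blood cells, was 4.42-fold lower in EB, but its second probe set had a log2 ratio of -0.10. LYN, a kinase of the SRC family, was 762 in EB and 286 in N1, 2.66-fold lower, with a second probe set at a log2 ratio of -0.70.

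Of the 28 listed markers of endothelial cells, the 3 genes included, 22 others had a probe set, and 10 of these were measured in EB against ESC. There 3 were at least 2-fold higher and 0 lower (median log2 ratio 0.63), beside 12.1% higher, 11.8% lower and a median of -0.06 for all measured genes. Beside TIE1, they were MMRN1, an adhesive protein of endothelial cells and platelets (77.8, 472, 996, 1622 and 1121 from ESC to N3), and the secreted vessel factor EGFL7 (216, 522, 337, 266 and 167 in the same order). MMRN1 was at least 4.72-fold higher in EB than in ESC and highest in N2, so it did not share the later course of the 3 genes. EGFL7 was 2.41-fold higher in EB and 3.13-fold lower in N3 than in EB.

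Of these 22 markers 11 were below the floor on all 5 arrays, 4 were above it on some and 7 on all. Among the 11 were VWF, the clotting factor stored in endothelial cells (13.5 to 94.4), CLDN5, the tight junction protein of brain vessels (4.65 to 24.0), SELE and ACVRL1. Among other markers of mature endothelium, the brightest probe sets of NOSTRIN and THBD were well above the floor on all 5 arrays. NOS3 and ENG came close to the floor or fell below it on some arrays. NOSTRIN, which binds the nitric oxide synthase of endothelial cells, read 2332, 3609, 3515, 7615 and 6421 from ESC to N3. NOS3, that synthase, was above the floor on 4 arrays, with its highest signal of 185 in EB. THBD (thrombomodulin) lay between 1886 and 2654 on its brightest probe set. Its second probe set differed, with a log2 ratio of 2.74 in EB against ESC and -1.50 in N3 against EB. ENG, a TGF-beta co-receptor, read 163, 251, 254, 112 and 252 from ESC to N3. From EB to N1, 2 of 11 measured markers besides the 3 genes were at least 2-fold higher (MMRN1 and EMCN) and 0 lower, beside 5.15% and 2.20% of all measured genes. EMCN was below the floor in ESC and EB and read 236, 195 and 163 from N1 to N3, so it had no maximum in EB. From EB to N3, 2 of 11 measured markers besides the 3 genes were at least 2-fold lower (TIE1 and EGFL7) and 1 was higher (MMRN1), near the shares of all measured genes, 11.2% and 13.0%. The 3 genes are called endothelial for their known role, and no value here shows which cells the RNA came from. In a bulk sample, fewer cells of a type and less RNA per cell cannot be told apart.

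**Figure D3:**
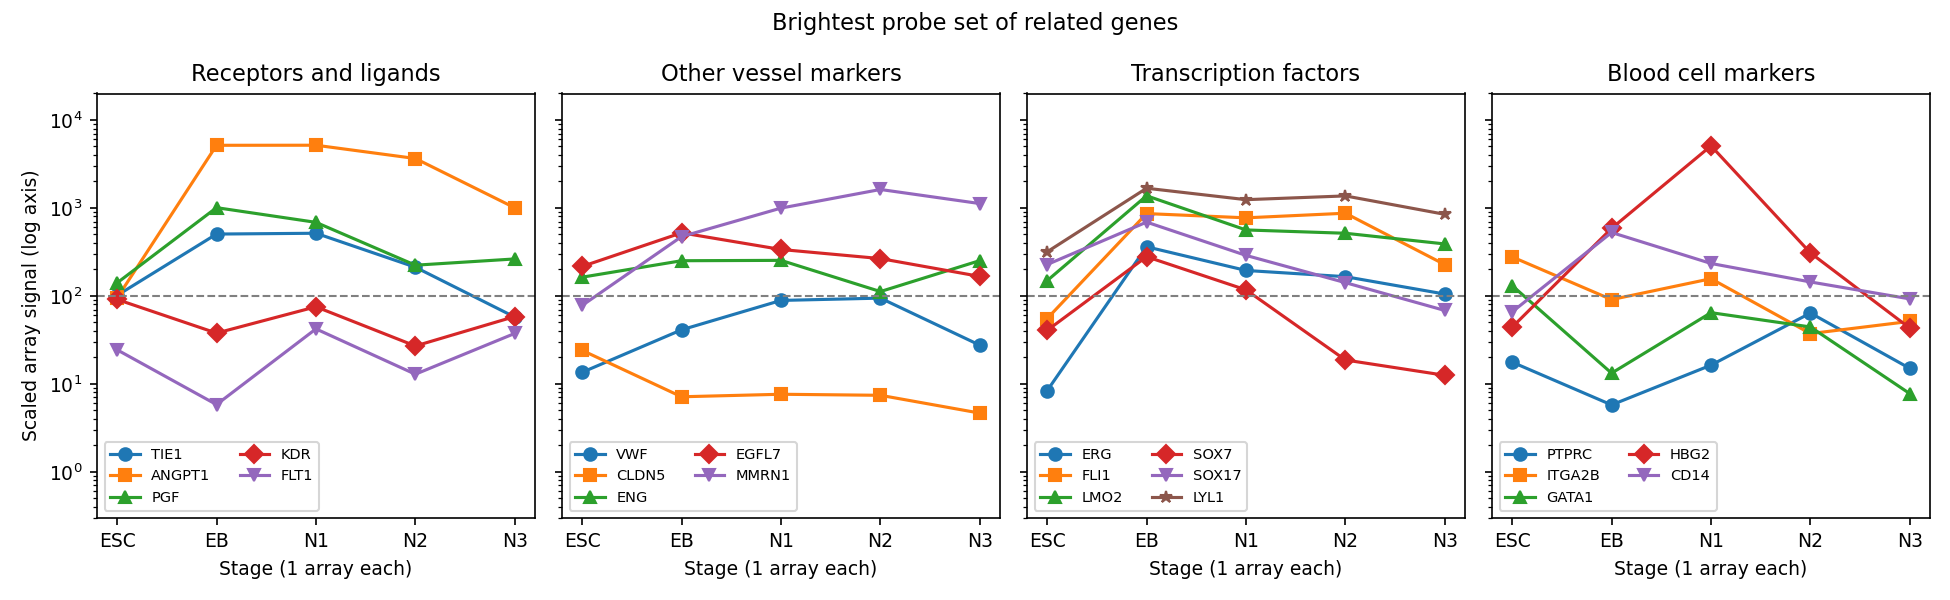
Scaled array signal (log axis) of the brightest probe set of 21 listed genes at the 5 stages, 1 array each, with the floor of 100 dashed; signals below it have no order, and heights are to be compared along a line only. TIE1, ANGPT1, ERG, LMO2 and SOX7 are higher in EB than in ESC, while KDR, FLT1, VWF, CLDN5 and PTPRC stay below the floor throughout.

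Most measured transcription factors of the endothelial and blood lineages were higher in EB than in ESC. Of 25 listed factors 24 had a probe set and 20 were measured in EB against ESC. Of these, 13 were at least 2-fold higher and 0 lower, beside 12.1% and 11.8% of all measured genes, with a median log2 ratio of 1.87. This list, like the others, was chosen with earlier results of these data known, so its contrasts with all genes are descriptions only. The median of the factors was 1.00 with a floor of 200. LMO2, a cofactor of blood and vessel progenitors, was 9.23-fold higher (149 in ESC and 1376 in EB). Of the ETS factors of endothelial cells, FLI1 was higher by a factor of at least 8.63 and ERG by at least 3.62. The listed ETS factors ETS1, ETS2 and ELK3 were within 2-fold, with log2 ratios of -0.69, 0.11 and 0.97. Their second probe sets had log2 ratios of -0.76, -0.67 and -1.50. Other factors past 2-fold were NR2F2, a factor of veins and of mesenchyme (at least 18.3-fold), EPAS1 (10.7-fold), the Notch target HEY1 (9.78-fold) and FOXC1 (at least 7.79-fold).

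A second measured probe set existed for 8 of these 13 factors. It was also at least 2-fold higher for 6, among them ERG (log2 ratio 1.26) and SOX17 (1.20). It was lower for FLI1 (-0.35), and for EPAS1 it was lower by more than 2-fold (-1.08). Several of the listed factors are not particular to vessels: SOX17 and HHEX also act in endoderm, and FOXF1, FOXC1 and HEY1 in mesoderm. TAL1 was not analysed here, and ETV2 and SOX18 were below the floor at every stage.

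Later, ERG and SOX17 followed the order of the 3 genes from EB onwards. ERG read 8.36, 362, 195, 165 and 105 from ESC to N3. SOX17 read 227, 690, 289, 142 and 68.3 in the same order, and SOX7 read 40.5, 279, 117, 18.7 and 12.5. FLI1 differed, with 55.3, 863, 772, 871 and 227 from ESC to N3. From EB to N3, 10 of 21 measured factors were at least 2-fold lower and 2 higher, with a median log2 ratio of -0.99. Over all measured genes 11.2% were lower and 13.0% higher, with a median of -0.07. SOX17 was at least 6.90-fold lower, EPAS1 5.46-fold (second probe set at a log2 ratio of 0.51) and FLI1 3.80-fold. The 2 higher ones were KLF4 (6.83-fold) and NR2F2 (2.37-fold). The second KLF4 probe set was below the floor in both EB and N3. For NR2F2 the second probe set had a log2 ratio of 1.62. In N1 against EB the list's median was -0.14 and turned to 0.30 with hybridisation controls, where the median of all genes was 0.41.

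**Figure D4:**
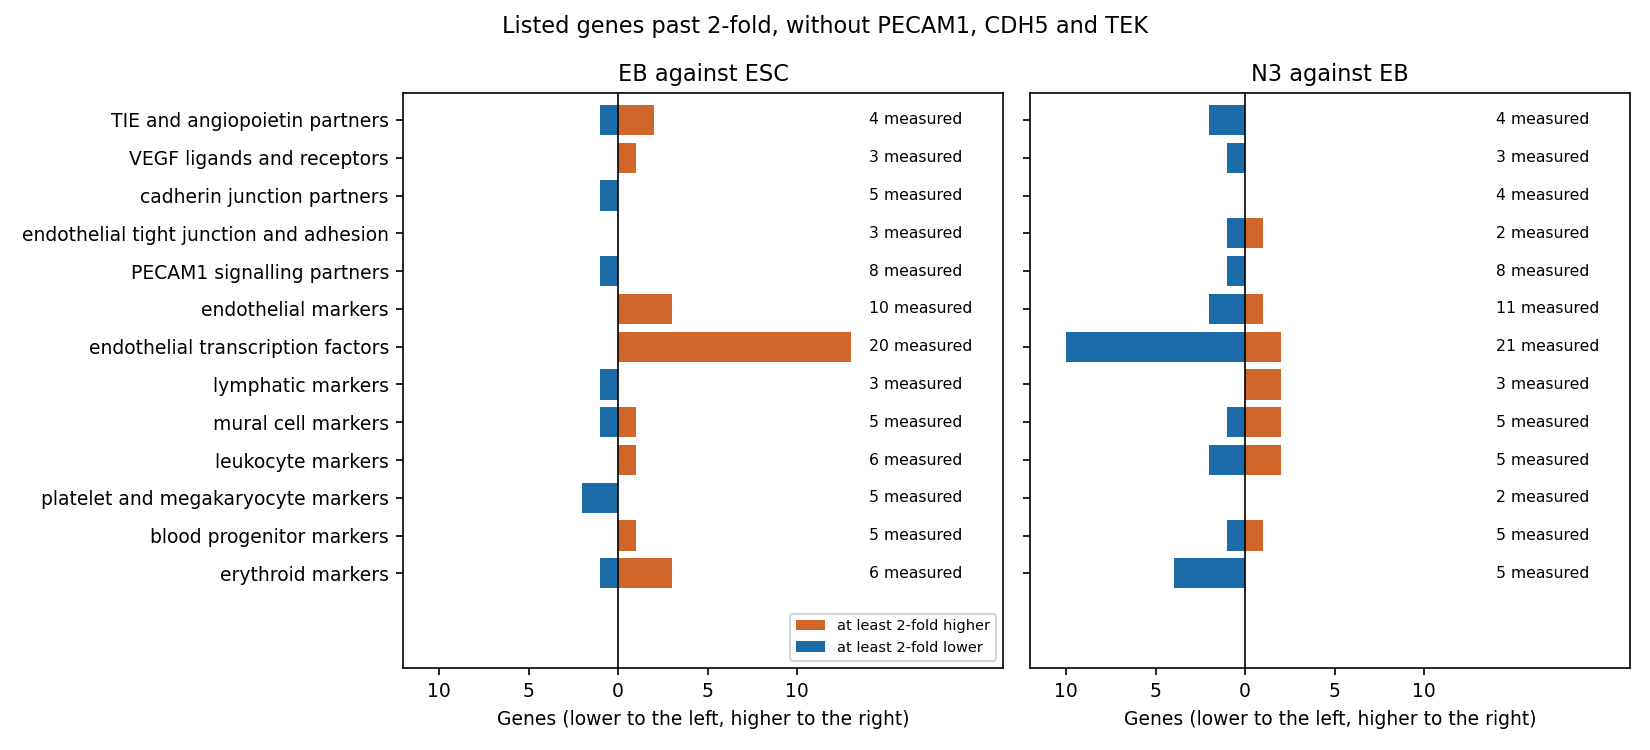
Number of genes of each list at least 2-fold higher (orange, to the right) or lower (blue, to the left) in EB against ESC and in N3 against EB, leaving out PECAM1, CDH5 and TEK, with the number measured beside each bar. The transcription factor list has 13 of 20 higher in the first comparison and 10 of 21 lower in the second.

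Markers of the other cells that carry PECAM1 did not share one course. PTPRC (CD45), the defining surface protein of white blood cells, read 5.76 to 63.9 and was below the floor at every stage. Of 9 leukocyte markers with a probe set, 6 were measured in EB against ESC and 1 was at least 2-fold higher, beside 12.1% of all measured genes. This was CD14, a monocyte receptor, at 65.8, 526, 234, 144 and 92.5 from ESC to N3. LCP1, an actin-bundling protein of white blood cells, read 798, 1207, 539, 149 and 35.4 from ESC to N3. On their brightest probe sets both were highest in EB and lower at each later step, as PECAM1 was. The second LCP1 probe set was instead lower in EB than in ESC, with a log2 ratio of -0.62. CD68, a lysosomal protein of macrophages, ran otherwise on its brightest probe set, with 310, 299, 532, 1734 and 2364 from ESC to N3. Its second probe set was above the floor in N1 alone. The summed leukocyte signal, with values below the floor counted as 100, was 1897, 2691, 2088, 2812 and 3402 from ESC to N3, most of it from CD68 in the last 2 stages. ITGA2B (CD41), a platelet integrin, was at least 2.78-fold lower in EB (278 in ESC and 90.8 in EB). Of 5 measured platelet and megakaryocyte markers 0 passed 2-fold upwards in EB and 2 downwards, beside 12.1% and 11.8% of all measured genes. The summed signal of the 8 such markers with a probe set, floored likewise, was 1221, 821, 1249, 901 and 826 from ESC to N3. Only 1 of these 8 was above the floor in EB, 2 in N2 and 1 in N3, so the sums there are mostly the floor value. Without the floor the sums were 997, 509, 1082, 477 and 358 from ESC to N3.

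Blood progenitor and red cell genes differed from each other. GATA1, the factor of red cells and megakaryocytes, was above the floor in ESC alone, at 131, and 1 of 5 measured progenitor markers was at least 2-fold higher in EB, beside 12.1% of all measured genes: MECOM (446 in ESC and 1220 in EB, with a second probe set at a log2 ratio of -0.23). The summed progenitor signal was 1909, 3034, 2731, 3121 and 2493 from ESC to N3. Among red cell genes, HBG2, a haemoglobin chain, read 44.1, 586, 5079, 308 and 43.0 from ESC to N3, so its maximum came a stage later than that of PECAM1 and CDH5. ALAS2, the haem enzyme of red cells, peaked in EB, with 104 in ESC, 789 in EB and 96.5 in N1. HBB, another haemoglobin chain, ran otherwise. It was above the floor in ESC alone, at 383, and at least 3.83-fold lower in EB. EPOR, a further listed red cell gene, was also highest in ESC, at 304, and read 247 in EB. Between ESC and EB, 3 of 6 measured members of this list passed 2-fold upwards and 1, HBB, downwards. For all measured genes these shares were 12.1% and 11.8%. The summed red cell signal, floored likewise, was 1200, 2197, 7794, 1061 and 717 from ESC to N3. In N3 only 1 of the 7 red cell genes was above the floor, and the sum without the floor was 355.

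The summed signals of the cells that wrap vessels and of lymphatic vessels were not highest in EB. Of 5 measured mural cell markers, KCNJ8 was at least 2.39-fold higher in EB than in ESC and MYH11 was 5.70-fold lower. Of all measured genes, 12.1% were at least 2-fold higher and 11.8% lower. The summed signal, floored likewise, was 5296, 4608, 5360, 6168 and 7306 from ESC to N3, most of it from ANPEP and NOTCH3. ANPEP lay between 2825 and 3485, and NOTCH3 read 890, 1163, 1212, 2331 and 3289 from ESC to N3. In N3 against ESC, NOTCH3 had a log2 ratio of 1.89, but its second probe set had -1.36. PROX1, the factor of lymphatic endothelium that also acts in neural and liver progenitors, was below the floor in ESC and N2 and read 122 in EB, 394 in N1 and 347 in N3. LYVE1 stayed below the floor. The summed lymphatic signal, floored likewise, was 2787, 528, 1033, 593 and 885 from ESC to N3, most of it in ESC from PDPN (2333). In EB 2 of the 5 lymphatic markers were above the floor, and the sum without the floor was 410. What part any of these cell types had in the signals of the 3 genes was not tested.

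The course of each gene was compared with that of all 6079 others that reached 200 on an array and spanned 2-fold, by the root mean square difference of the centred log2 signals over the 5 stages. For PECAM1 the nearest were the ubiquitin ligase gene RNF128 (0.18), the prothrombin gene F2 (0.21), CDH5 (0.25), the keratin gene KRT19 (0.27) and FREM2 (0.32), a basement membrane protein gene. For CDH5 they were the transporter gene SLC16A9 (0.24), PECAM1 (0.25), the transcription factor gene PRDM1 (0.28), RNF128 (0.29) and RASGRP3 (0.29), a RAS activator gene. CDH5 thus stood at place 3 in the order around PECAM1, and PECAM1 at place 2 around CDH5, while TEK stood at place 67 and place 91.

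For TEK the nearest were the histone gene H2BC9 (0.16), GGT1 (0.17), the retinoic acid-binding protein gene CRABP2 (0.19), WFDC2 (0.20) and BMP4 (0.21). PECAM1 stood only at place 852 and CDH5 at place 638 in the order around TEK, at differences of 0.65 and 0.59. RNF128, the nearest to PECAM1, read 190.1, 1588, 904, 449 and 172 from ESC to N3. CRABP2 read 5212, 11041, 7128, 3433 and 1762 from ESC to N3. These likenesses rest on the same 5 arrays and carry no test.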

How the data were processed

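The authors deposited linear intensities of 52865 probe sets on each of the 5 arrays. The submitters' processing notes name GCOS 1.0, and no source used here gives the algorithm, the scaling target or detection calls. The trimmed mean (2% from each end, controls left out) was 199.1 to 199.3 on the 5 arrays, and each array was rescaled to 500 (factors 2.508 to 2.511). Signals were then floored at 100, and log2 of the deposited, rescaled values was taken. Gene symbols came from GEO's annotation of the platform, possibly outdated: 24969 had 1 symbol, 361 had several and 27535 were not listed. Entrez identifiers of 24629 matched the RefSeq gene table and 0 symbols needed updating.

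Each gene was represented by its brightest probe set (by mean log2 signal), and was measured in a comparison when above the floor on 1 or both arrays. The call was 2-fold. With 1 array a stage no test was run, and the number of arrays limits the precision. The genes named were drawn from the 3 genes, members of 13 lists past 2-fold (at most 6 of a list per comparison), and 17 markers whatever their value. The 5 genes nearest each of the 3 are named as well. Not every list member past 2-fold is named above, so a gene left out was not necessarily within 2-fold. In N3 against ESC, for example, F11R was 7.20-fold lower and MEF2C 8.00-fold higher. Other named list members were chosen after their values were seen. Among them were SVEP1, ANGPT4, FLT4, VEGFB, NRP1, CTNNA1, CTNND1, JUP, SELE, ACVRL1, THBD, NOS3, ETS1, ETS2, ELK3, ETV2, SOX18, ANPEP and LYVE1. Of 154 listed genes 115 had a probe set. The members and lists were chosen with earlier results of these data known. The calculations used Python 3.11.15, numpy 2.4.6 and pandas 2.3.3, and were tested on simulated data. The alternatives were 4 other scalings, 2 other floors, no floor, the median over probe sets, dropping those marked for cross-hybridisation, and a 4-fold threshold. No coordinates or sequences are given.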

Additional observations from a re-analysis of the deposited data

How the results depend on the processing

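Of 378 recomputed values, 288 stayed within 1 SD between probe sets of a gene (for counts, within 1.5 times), and 1 value past 2-fold turned in sign: TEK in EB against ESC, at -0.014 with the median of its probe sets. Sign changes also occurred in 9 recomputed medians of the endothelial marker and transcription factor lists, all from sizes of at most 0.33: the marker median (the 3 genes included) in N1 against EB went from -0.07 to 0.23 with hybridisation controls and 0.01 with a floor of 50 or none, and in N3 against ESC from -0.33 to 0.10 with the median of probe sets. The transcription factor median went from -0.14 to 0.30 in N1 against EB with hybridisation controls, and from -0.04 to between 0.03 and 0.07 in N2 against N1 under 4 settings. Apart from the TEK value, the brightest-probe log2 ratios of PECAM1, CDH5 and TEK kept their direction under the alternatives run in the 6 comparisons with a value. CDH5 in N3 against ESC has no value, being below the floor in both. No paired analysis was possible because each stage has 1 array. Signal over background, not depth, limits PECAM1 and CDH5 where a side lies below the floor, since such a ratio moves with the floor by construction; their ratios in N1 against EB and N2 against N1 were the same at floors of 50, 100 and 200. The deposited values were lower by factors of 2.508 to 2.511, so a floor of 100 cuts them at a higher relative level. With no floor, the brightest PECAM1 probe set had a log2 ratio of 3.36 in EB against ESC on both scales. The cause of the other shifts was not tested.

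With the values as deposited and the floor kept at 100, PECAM1 was at 2.36 and CDH5 at 1.87 in EB against ESC, -0.26 and -0.017 in N3 against N2, and -2.36 and -1.87 in N3 against EB. With the median of probe sets, in EB against ESC PECAM1 was at 2.14 and CDH5 at 1.67, in N1 against EB CDH5 at -0.85 and TEK at -0.30, in N2 against N1 TEK at -0.22, in N3 against N2 PECAM1, CDH5 and TEK at -0.012, -0.67 and -0.41, and in N3 against EB at -2.14, -1.67 and -0.93. With a floor of 50, CDH5 was at 4.20 in EB against ESC, and PECAM1 and CDH5 at -2.30 and -2.34 in N3 against N2 and at -4.41 and -4.20 in N3 against EB. With a floor of 200 they were at -0.59 and -0.34, and at -2.69 and -2.20, with CDH5 at 2.20 in EB against ESC and the median of the endothelial transcription factors there at 1.00. With no floor CDH5 was at 4.20 in EB against ESC, and PECAM1 and CDH5 at -2.28 and -4.28 in N3 against N2 and at -4.38 and -6.13 in N3 against EB. Scaling to the hybridisation controls gave PECAM1, CDH5 and TEK -0.84, -1.10 and -0.35 in N1 against EB, and -1.38, -0.87 and -1.45 in N2 against N1.

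Counts of all genes past 2-fold moved more. In EB against ESC (1332 higher and 1290 lower) the lower count was 746 with values as deposited and 2038 with a floor of 50, and the counts were 2029 and 3197 with no floor and 2626 and 656 with equal medians, where 80.0% of the called genes were higher in place of 50.8%. In N1 against EB (532 and 227) they were 256 and 149 as deposited, 872 and 342 with a floor of 50, 1906 and 920 with no floor, 283 and 850 with equal medians, 1492 and 75 with hybridisation controls, and the higher count was 322 with a floor of 200 and 354 after quantile normalisation. In N2 against N1 (534 and 689) they were 354 and 407 as deposited, 1393 and 1740 with no floor and 187 and 2543 with hybridisation controls, and the higher count was 354 with the median of probe sets. In N3 against N2 (497 and 228) they were 295 and 139 as deposited, 1452 and 1182 with no floor and 828 and 131 with hybridisation controls, and the lower count was 396 with a floor of 50, 149 with a floor of 200 and 120 with the median of probe sets. In N3 against ESC the lower count of 1847 was 3454 with no floor. In N3 against EB (1363 and 1180) they were 2640 and 2130 with no floor, and the lower count was 2468 with equal medians. At 4-fold, the higher and lower counts were 405 and 255 in EB against ESC, 56 and 10 in N1 against EB, 71 and 51 in N2 against N1, 36 and 22 in N3 against N2, 726 and 316 in N3 against ESC, and 455 and 212 in N3 against EB.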
